A study of Mus musculus with 2 samples.

Results

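The 10 genes described here encode the granins and the enzymes that turn peptide precursors into active neuropeptides. They were taken by name: Vgf, Chga, Chgb, Scg2, Scg3, Scg5, Pcsk1, Pcsk2, Cpe and Pam, which are 10 of 55536 annotated genes and belong to the 22015 nuclear protein-coding genes. Their levels were read in total RNA of the left cerebral cortex from 2 mice, B6CASTF1/J males of 10 days, a cross of C57BL/6J and CAST/EiJ. Each mouse gave 1 library from 300 ng of RNA with added ERCC spike-ins (synthetic RNAs), and no treatment, second age or control group belongs to the design. The labels give the animals different numbers and the same donor identifier, and the libraries were read as 2 biological replicates, replicate 1 and replicate 2. The spread between them may therefore be partly technical, or wholly so if both came from 1 animal, and no test between groups was made.

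Neurons and endocrine cells pack peptides into dense-core vesicles, which bud from the trans-Golgi network and release their content when calcium rises. Granins are acidic proteins that aggregate with calcium in the acidic Golgi lumen, help to form these vesicles and are themselves cut into peptides. Inside the vesicle, prohormone convertases cut precursors after pairs of basic residues, a carboxypeptidase trims the exposed lysine or arginine, and an amidating enzyme converts a terminal glycine into the amide that many neuropeptides need. In cortex, projection neurons and interneurons both carry this machinery.

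Values are TPM, an abundance corrected for transcript length that sums to the same total in each library, from the authors' gene table unless said otherwise. The authors deposited a second quantification of the same reads, which is called the second quantification here. Replicate 1 held 31254528 expected counts and replicate 2 held 30218308, of which the 10 genes took 0.232% in replicate 1 and 0.228% in replicate 2. The tissue label was checked with marker genes. Slc17a7 and Camk2a of glutamatergic neurons averaged 491 ± 10.8 and 485 ± 2.13 TPM, and Gad1 of GABAergic neurons 80.7 ± 5.20 (SD, n = 2). Of 5 markers of pituitary and adrenal endocrine cells, the best known sites of granins, Gh, Prl and Tshb were listed at 0 in both libraries. Dbh and Pnmt averaged 0.610 ± 0.042 and 0.350 ± 0.226. The libraries differed in markers of tissue neighbouring the cortex. The 4 choroid plexus markers summed to 8.71 TPM in replicate 1 and 311 in replicate 2, nearly all of it Ttr, and the 4 striatal markers summed to 90.3 in replicate 1 and 57.0 in replicate 2.

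All 10 genes reached 1 TPM in each library and were called detected, as were 59.6% of nuclear protein-coding genes, and 9 of the 10 exceeded 16.3 TPM, the median of the detected protein-coding genes. Together they summed to 1659.6 TPM in replicate 1 and 1642 in replicate 2. A single gene, Cpe, held 51.5% of this sum in replicate 1 and 51.1% in replicate 2. The exception at the low end was Pcsk1, which ranked 8638 among the protein-coding genes.

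**Figure D1:**
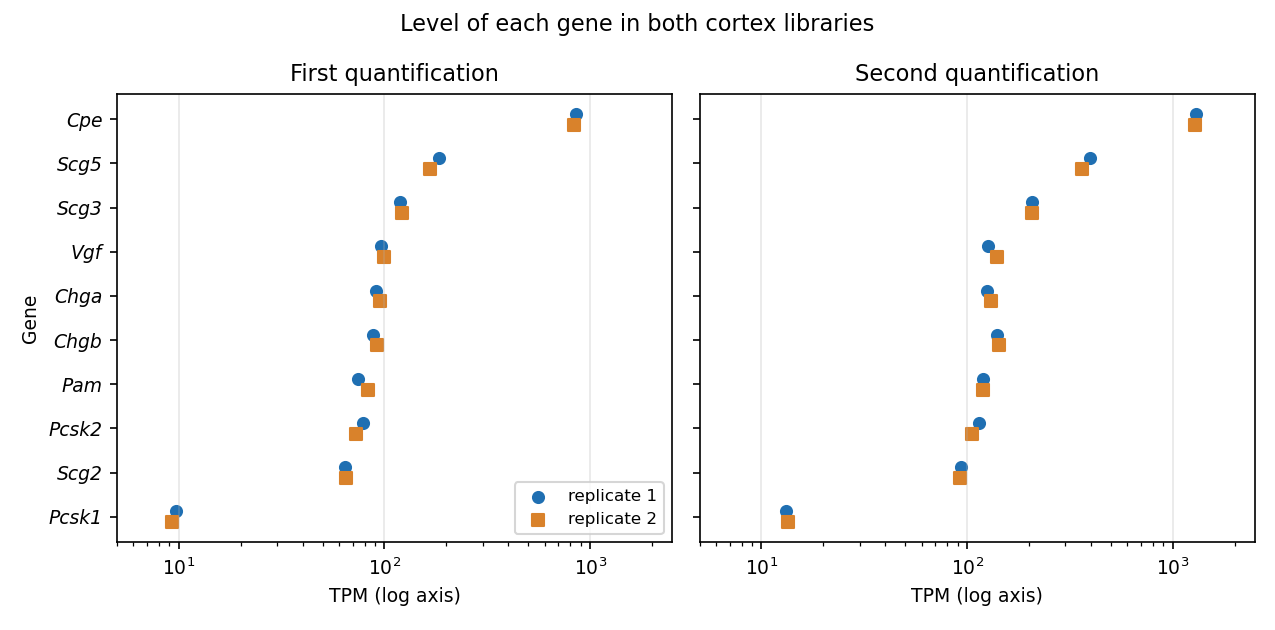
TPM (log axis) of the 10 genes in replicate 1 (circles) and replicate 2 (squares), with the first quantification on the left and the second on the right. Cpe stood alone near the top at 854 and 839 TPM in the first quantification, 8 genes fell between 64.4 and 185, and Pcsk1 lay lowest at 9.68 and 9.30.

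Among the granins, Scg3 was highest. Scg3 (ENSMUSG00000032181.7, mm10 chromosome 9, 75643189 to 75684056, minus strand), which binds cholesterol-rich granule membranes and draws chromogranin A to them, stood at 119 TPM in replicate 1 and 121 in replicate 2. Its mean was 119.9 ± 1.90 (SD, n = 2). Vgf (ENSMUSG00000037428.14, chromosome 5, 137026392 to 137033351, plus strand), a precursor of secreted peptides that neurotrophins induce, stood at 96.3 and 99.0 TPM. Chga (ENSMUSG00000021194.6, chromosome 12, 102554969 to 102565028, plus strand), the precursor of catestatin and vasostatin, stood at 91.0 TPM in replicate 1 and 94.6 in replicate 2. As gene totals, these 3 genes did not overlap in their ranges over the libraries. Of the Vgf total, the incomplete transcript Vgf-203 of 581 bases held 20.8% in replicate 1 and 22.2% in replicate 2. It had 198 and 209 expected counts, and the place of Vgf above Chga depends on including it.

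Chgb (ENSMUSG00000027350.8, chromosome 2, 132781278 to 132795079, plus strand), a chromogranin of the same vesicles, had 87.8 TPM in replicate 1 and 91.5 in replicate 2. Its range overlapped that of Chga, and in the second quantification the order turned round, with Chgb at 142 ± 2.75 and Chga at 128 ± 3.56 (SD, n = 2). There Chgb also exceeded Vgf, which averaged 133 ± 9.40. The order of these 3 genes was thus not fixed by these data. Scg2 (ENSMUSG00000050711.7, chromosome 1, 79434669 to 79440120, minus strand), the precursor of secretoneurin, was the lowest of the granins at 64.4 and 65.0 TPM. Scg3 exceeded it by a ratio of 1.85 ± 0.017 in TPM (n = 2), and by 2.22 ± 0.0051 in the second quantification. The larger value went with the transcript Scg3-206, described further on, which held 0% of Scg3 in the first quantification and 18.3 ± 0.461% in the second. Summed, Vgf, Chga, Chgb, Scg2 and Scg3 reached 458 TPM in replicate 1 and 471 in replicate 2.

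Scg5 (ENSMUSG00000023236.7, chromosome 2, 113776362 to 113829121, minus strand) encodes the chaperone that the convertase of Pcsk2 needs to become active. It stood at 185 TPM in replicate 1 and 166 in replicate 2, above every granin. Pcsk2 (ENSMUSG00000027419.9, chromosome 2, 143546156 to 143816285, plus strand) stood at 78.5 TPM in replicate 1 and 73.0 in replicate 2. The chaperone gene exceeded its client by a ratio of 2.36 in replicate 1 and 2.28 in replicate 2, a spread far smaller than the difference. In the second quantification that ratio was 3.43 ± 0.032 (SD, n = 2), the larger value going with transcripts of Scg5 described further on.

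The other neuroendocrine convertase gene, Pcsk1 (ENSMUSG00000021587.5, chromosome 13, 75089826 to 75134861, plus strand), stood at 9.68 TPM in replicate 1 and 9.30 in replicate 2. Pcsk2 exceeded it by a ratio of 7.98 ± 0.183 in TPM, and by 8.28 ± 0.558 in the second quantification (SD, n = 2). Pcsk1n, whose product is an inhibitor of the Pcsk1 convertase and resembles a granin, stood at 148 TPM in replicate 1 and 151 in replicate 2. It exceeded Pcsk1 by a ratio of 15.7 ± 0.649. For both convertases, then, the gene of the binding partner was the more abundant. RNA levels say nothing of the amounts of active protein.

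Cpe (ENSMUSG00000037852.8, chromosome 8, 64592542 to 64693054, minus strand), the carboxypeptidase that trims basic residues, stood at 854 TPM in replicate 1 and 839 in replicate 2. It ranked 22 among the nuclear protein-coding genes. It exceeded Scg5, the next of the 10, by a ratio of 4.83 ± 0.306, and Pcsk2 by 11.2 ± 0.431 (SD, n = 2). Pam (ENSMUSG00000026335.16, chromosome 1, 97795114 to 98095646, minus strand), the amidating enzyme, which uses copper and ascorbate, stood at 74.05 TPM in replicate 1 and 83.2 in replicate 2. Its range overlapped that of Pcsk2. In the second quantification Pam was at 119 ± 0.883 and Pcsk2 at 109.9 ± 6.0 (SD, n = 2), with ranges that did not overlap. There the short processed transcript Pam-208 held 11.5% of Pam in replicate 1 and 10.1% in replicate 2. It had only 25.2 and 21.1 counts, so the separation of Pam from Pcsk2 rests partly on few counts.

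All 10 genes had higher TPM in the second quantification, by ratios of 1.37 to 2.14. The summed TPM of protein-coding genes was itself 1.62 times as high there, so levels are compared within a quantification. The expected counts of the 10 genes were deposited as whole numbers in both libraries, to the 2 decimals the tables print, which does not show that no read was shared with another gene. Exons of Pcsk2 overlapped 2 antisense genes, of which Pcsk2os1 had 64 counts in replicate 1 and 58 in replicate 2 and Pcsk2os2 had 0 and 1. Exons of Pam overlapped B230216N24Rik on the same strand, with 126 and 128 counts. The sources used here do not give the strand setting of the counting, and these counts were small beside the 6593 to 7384 of Pcsk2 and the 4896 to 5009 of Pam.

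The upstream sequence of the genes was searched for the cyclic AMP response element TGACGTCA, the binding site of the factor CREB, because several granin genes are textbook CREB targets. RefSeq windows (build GRCm38.p6) from 250 bases before to 50 after the annotated start were at hand for 8 of the 10 genes, not for Vgf and Cpe. The element, which reads the same on both strands, lay in the windows of Scg2, Chgb and Pcsk1, against 1.79% of all 32851 windows. It began 68, 72 and 78 bases upstream of the start in these genes. Its shorter core TGACG, searched on both strands and contained in the full element, lay in 7 of the 8 genes and in 20.8% of all windows. The 30 bases around each element are shown 5′ to 3′ with the element in capitals.
Scg2, chr1:79440076-79440105, minus strand: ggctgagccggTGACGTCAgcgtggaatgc
Chgb, chr2:132781559-132781588, plus strand: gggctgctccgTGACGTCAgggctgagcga
Pcsk1, chr13:75089768-75089797, plus strand: ccaggtagatcTGACGTCAagagatggctt
Scg2 stood at 64.7 ± 0.438 TPM, Chgb at 89.65 ± 2.59 and Pcsk1 at 9.49 ± 0.269 (SD, n = 2), so the lowest of the 10 genes was among those with the element. GENCODE places the start of Chgb-201 364 bases and that of Scg2-201 94 bases further upstream than RefSeq, which puts the element inside their first exon. These matches describe letters in a window, and binding was not measured.

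**Figure D2:**
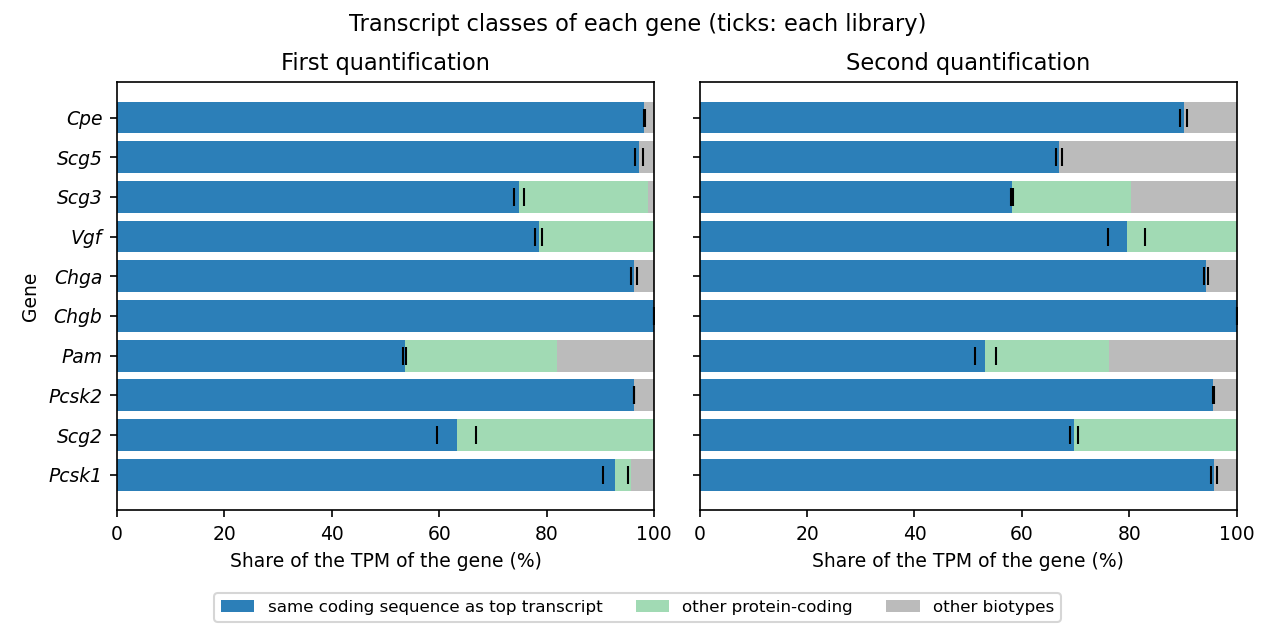
Share of the TPM of each gene (%) held by transcripts with the coding sequence of its top transcript in the first quantification, by other protein-coding transcripts and by other biotypes, as means over both libraries, with ticks for each library. Chgb is all 1 class, Pam and Scg2 are split, and Scg5 and Scg3 held 33.0% and 19.6% in other biotypes in the second quantification against 2.83% and 1.10% in the first.

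Transcript shares were then compared between the quantifications. On means of the libraries, the top transcript was the same for 9 of the 10 genes. It was the same for 76.0% of the 12024 protein-coding genes that averaged at least 1 TPM and had at least 2 annotated transcripts. Chgb has 1 annotated transcript and could not differ. Cpe-201, coding for 476 residues, held 98.2 ± 0.233% of Cpe in the first quantification and 90.1 ± 0.949% in the second (SD, n = 2). Pcsk2-201, of 637 residues, held 96.2 ± 0.071% and 95.6 ± 0.092%. For Chga and Pcsk1, too, a single transcript carried nearly the whole gene. Chga-201, of 463 residues, held 96.3 ± 0.771% and 94.3 ± 0.552%. Pcsk1-201, of 753 residues, held 92.8 ± 3.33% and 95.8 ± 0.789%.

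Vgf was the exception. Its first quantification put 72.6 ± 0.255% of the gene on Vgf-201, a transcript of 2 exons, and 5.79 ± 0.594% on Vgf-204, which starts further upstream and has 5 exons (SD, n = 2). The second put 2.34 ± 0.678% on Vgf-201 and 77.2 ± 5.52% on Vgf-204. Within each quantification the libraries differed far less than the quantifications did. Both transcripts, and Vgf-202, have the same annotated coding sequence of 617 residues. Together these 3 held 78.5 ± 0.969% in the first quantification and 79.5 ± 4.84% in the second. The disagreement therefore concerned the exons upstream of the coding sequence, and the share of the coding sequence differed by less than the spread between libraries. The incomplete transcript Vgf-203 held the rest.

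**Figure D3:**
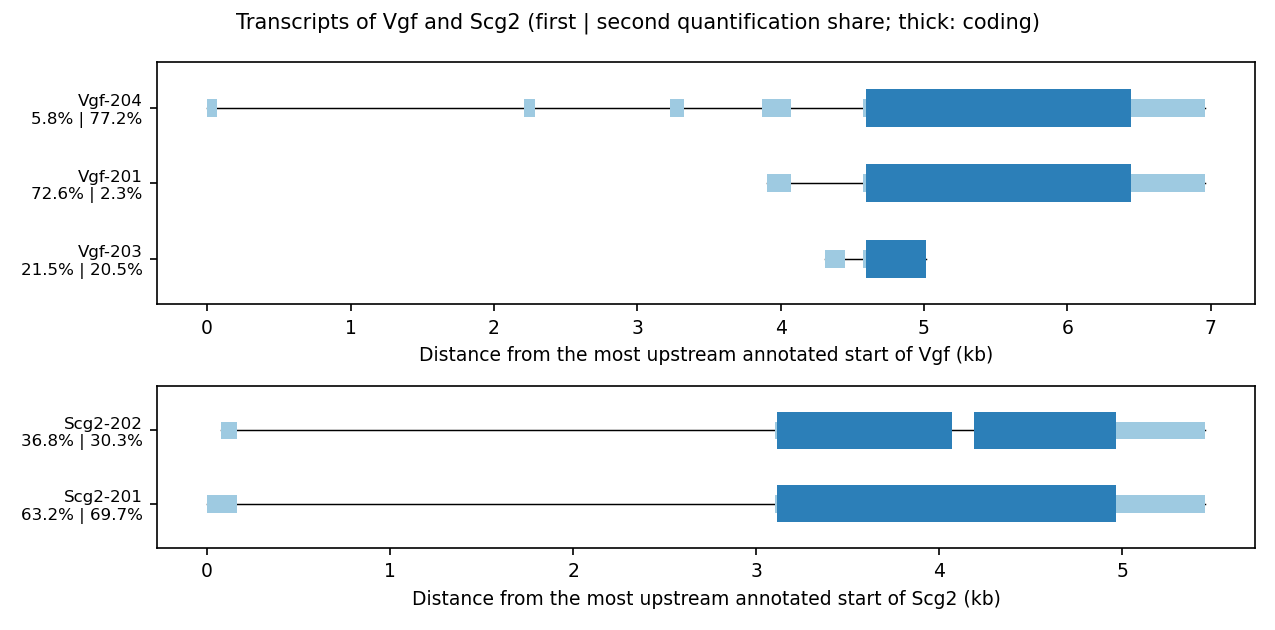
Annotated exons of the main transcripts of Vgf and Scg2 by distance from the most upstream start (kb), with coding parts thick and the mean share in the first and second quantification under each name. The coding block of Vgf-201 and Vgf-204 is identical while their upstream exons differ, and Scg2-202 lacks a stretch in the middle of the coding block of Scg2-201.

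Scg2 had 2 annotated transcripts that differ in protein. Scg2-201, of 617 residues, held 66.9% of the TPM of the gene in replicate 1 and 59.6% in replicate 2. Scg2-202, of 577 residues, held 33.1% and 40.4%. In the second quantification Scg2-202 held 30.99% in replicate 1 and 29.5% in replicate 2. Scg2-201 was therefore the larger in both libraries and both quantifications. Scg2-202 lacks 120 bases of the coding exon, 40 residues within codons 318 to 358 of the longer form, and also starts further downstream. The stretch is shown as it stands in Scg2-201 (chr1:79435932-79436051, minus strand, GENCODE M21), with its first and last bases, GT and AG as at the ends of most introns, in capitals.
Scg2, left out of Scg2-202: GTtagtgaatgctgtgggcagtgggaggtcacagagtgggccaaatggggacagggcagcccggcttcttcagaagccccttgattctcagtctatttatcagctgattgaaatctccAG
Expected counts behind these shares were 970 in replicate 1 and 1149 in replicate 2 for Scg2-202, against 2137 and 1843 for Scg2-201. They are estimates that divide reads common to both transcripts.

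Scg3 was carried mainly by Scg3-202, of 466 residues, at 74.9 ± 1.32% of the TPM of the gene. Scg3-201, of 471 residues, held 22.75 ± 2.47% (SD, n = 2). Of these 2 transcripts alone, Scg3-202 took 76.7 ± 2.26% in the first quantification and 73.9 ± 0.841% in the second (SD, n = 2). Their coding sequences differ by 15 bases at the end of an exon (chr9:75663193-75663207, minus strand), which Scg3-201 keeps. The capitals mark those bases in the longer form, and the second line shows the junction without them.
Scg3-201: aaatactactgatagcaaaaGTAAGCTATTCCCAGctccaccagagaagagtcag
Scg3-202: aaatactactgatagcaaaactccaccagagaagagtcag
Scg3-206, a transcript annotated as subject to nonsense-mediated decay, held 0% of the gene in the first quantification and 18.3 ± 0.461% in the second. Its counts in the second were 291 in replicate 1 and 282 in replicate 2, beside 3566 and 3417 for Scg3-202.

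Pam was the most divided gene, with 15 annotated transcripts. Pam-201, of 979 residues, held 53.6 ± 0.332% in the first quantification and 53.2 ± 2.74% in the second (SD, n = 2). Pam-202, of 978 residues, held 11.0 ± 0.219% and 13.2 ± 0.701%. Pam-210, of 873 residues, held 13.4% in replicate 1 and 8.14% in replicate 2, and in the second quantification 6.64% and 3.47%. It was the lower in replicate 2 in both. Among these 3 long transcripts Pam-210 took 14.2 ± 4.23% in the first quantification and 7.11 ± 3.25% in the second.

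Pam-210 lacks exon 15 of Pam-201, 318 coding bases or 106 residues (chr1:97864203-97864520, minus strand). In rat the exon at this junction is known as exon A, and its presence lets the 2 catalytic domains of the enzyme be cut apart. Pam-210 also lacks the first exon of Pam-201 and starts further downstream, so its share does not measure the skipping of exon 15 alone. The junctions are shown with bases of the exon in capitals, entering it, leaving it and skipping it.
Pam-201, into the exon: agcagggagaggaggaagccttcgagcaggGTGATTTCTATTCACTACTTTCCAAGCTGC
Pam-201, out of the exon: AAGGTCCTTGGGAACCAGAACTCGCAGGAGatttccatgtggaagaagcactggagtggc
Pam-210, skipping it: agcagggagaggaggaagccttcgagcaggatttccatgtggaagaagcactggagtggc
Pam-201 and Pam-202 both contain the exon. Their coding parts differ by 3 bases at the start of a later exon (chr1:97826038-97826040, minus strand), present in Pam-201 and in capitals here.
Pam-201: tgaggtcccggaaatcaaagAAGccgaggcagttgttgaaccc

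Some transcripts with no annotated coding sequence also had different shares in the quantifications. For Scg5, Scg5-201 (212 residues) held 97.2 ± 1.05% in the first quantification and 67.0 ± 0.760% in the second (SD, n = 2). The 2-exon processed transcript Scg5-202 took the remainder, with 39.3 and 57.7 expected counts in replicates 1 and 2 of the first quantification and 541 and 470 of the second. Cpe-202 likewise held 1.53 ± 0.184% of Cpe in the first quantification and 9.78 ± 0.924% in the second. In Pam all biotypes other than protein-coding summed to 18.1 ± 3.05% and 23.7 ± 1.40%. These are shares of TPM, which divides counts by an effective length, so short transcripts can take large shares from few counts. In the second quantification Pam-208 held 11.5% in replicate 1 and 10.1% in replicate 2. It had 25.2 and 21.1 counts, beside 3763 and 3907 for Pam-201. Cpe-202 had 496 and 514 counts there, beside 34574 and 31896 for Cpe-201. For Scg5 and Cpe the libraries lay closer to each other than the quantifications did.

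The animals were then compared through the log2 of the TPM of replicate 2 divided by that of replicate 1, after adding 0.1. With 1 library per animal these differences have no replicate check. The limit for calling a gene was 0.32 in either direction. None of the 10 genes passed it, where 7.33% of the 12835 genes averaging at least 100 expected counts did, 5.27% higher and 2.06% lower in replicate 2. Of the 6092 genes with at least the counts of Pcsk1, 1.77% did, so a count of 0 among 10 is near the background. Ratios of the 10 ran from -0.16 for Scg5 to 0.17 for Pam, with a median of 0.02, beside a median of 0.04 over all tested genes. Replicate 2 was the higher for 6 of the 10, and for 62.1% of all tested genes.

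**Figure D4:**
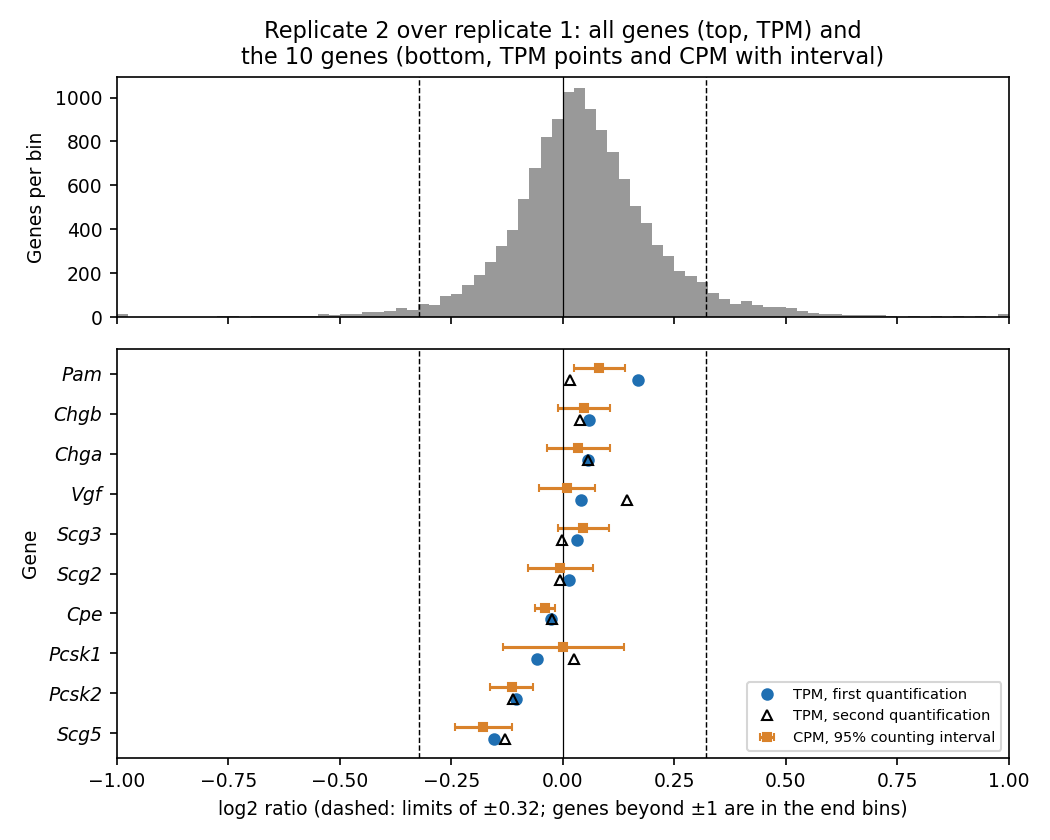
Top: number of genes per bin of log2 TPM ratio, replicate 2 over replicate 1, for the 12835 tested genes. Bottom: the 10 genes with the TPM ratio of the first (circles) and second (triangles) quantification and the CPM ratio (squares) with its 95% Clopper-Pearson interval on counts. Every point lies inside the dashed lines at the limits of 0.32. Scg5, Pcsk2 and Cpe are on the negative side by all measures. Pam has its TPM ratio of the first quantification outside its count interval.

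Scg5, Pcsk2 and Cpe shared the lower side. For Scg5 the ratio of CPM (expected counts scaled to the library total) was 0.884, with a 95% Clopper-Pearson interval of 0.845 to 0.925, and for Pcsk2 it was 0.923 (0.893 to 0.955). Cpe had 0.972 (0.958 to 0.987) and Pam 1.06 (1.02 to 1.10). The intervals of the other 6 genes included 1. These intervals cover counting error alone: they leave out variation between animals, and PCR copies are not separate molecules. By the TPM of both quantifications and by CPM, the ratios of Scg5, Pcsk2 and Cpe were below 0 and those of Chga, Chgb and Pam above 0, and the scalings that shift all genes alike turned none of these signs. The ratios of Vgf, Scg2, Scg3 and Pcsk1 stayed between -0.06 and 0.14 over the settings tried, on both sides of 0. The size for Pam depended on the quantification, at 0.17 in the first and 0.02 in the second. In the first, the retained-intron transcript Pam-206 held 2.40% of Pam in replicate 1 and 9.74% in replicate 2, and in the second 0%. Pam-213, another such transcript, went the other way in the first, from 6.34% to 1.12%. The part of these transcripts in the Pam ratio was not tested. Beside these ratios, 4 of 4 striatal markers passed the limit downwards in replicate 2, at a median of -0.68. Their part in the ratios of Scg5, Pcsk2 and Cpe was not tested. In bulk tissue, fewer cells of a type and less RNA per cell cannot be told apart.

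Activity-induced genes were set beside the 10 because Vgf, Scg2 and Pcsk1 are known to respond to neuronal activity or cyclic AMP. Egr1 and Nr4a1 led the 9 genes of this list at 39.9 ± 3.86 and 18.4 ± 1.74 TPM, and Npas4 and Fosb were lowest at 4.38 ± 0.198 and 1.26 ± 0.269 (SD, n = 2). The list had 8 genes with enough counts, of which 8 were above 0, as were 62.1% of all tested genes, and 2 were higher past the limit, as were 5.27%. Their median was 0.17, beside 0.04 over all tested genes. Those 2 were Fos at 0.87 and Junb at 0.40, named after their values were seen. In the same libraries Vgf had 0.04, Scg2 0.01 and Pcsk1 -0.06, none of them past the limit.

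**Figure D5:**
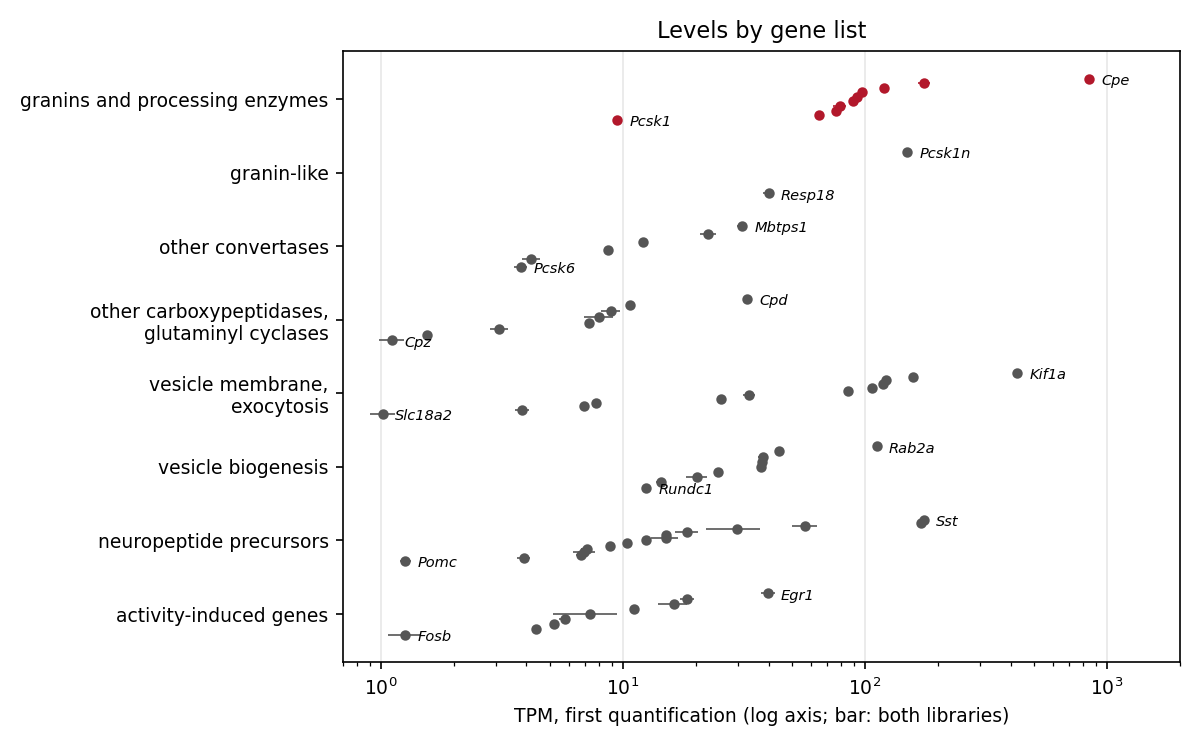
Mean TPM (log axis) of every gene in the 7 pathway lists and of the 10 granins and processing enzymes (red), with bars spanning both libraries, and with the highest and lowest gene of each list named. Cpe is the highest gene in the plot, Kif1a the next, and Slc18a2, Cpz, Fosb and Pomc lie near 1 TPM.

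The genes that act beside the 10 were grouped in 7 lists with 61 genes. Of 6 other convertase genes, all 6 were detected, with a list median of 10.4 TPM. Mbtps1, the site-1 protease that activates SREBP factors, averaged 31.1 ± 2.21 and Furin, the convertase of the Golgi, 22.6 ± 2.40, while Pcsk4 and Pcsk6 had 4.195 ± 0.530 and 3.79 ± 0.325 (SD, n = 2). Pcsk2 exceeded Furin by a ratio of 3.38 ± 0.532, and Pcsk1 was lower than Furin. Of 8 other carboxypeptidase and glutaminyl cyclase genes, 7 were detected, with a median of 7.36. Cpd, which acts in the Golgi, averaged 32.5 ± 0.396, below Cpe by a ratio of 26.0 ± 0.016. The glutaminyl cyclase gene Qpctl followed at 10.7 ± 0.226. Cpz and Cpm were lowest, at 1.12 ± 0.191 and 1.56 ± 0.0071.

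The vesicle itself was represented by 12 genes for its membrane and exocytosis, of which 11 were detected, with a list median of 59.1 TPM. Kif1a, the kinesin that carries dense-core vesicles along axons, averaged 426 ± 2.89, and Ptprn2, a vesicle membrane protein, 158 ± 1.64 (SD, n = 2). At the low end stood Atp7a, the copper pump that supplies Pam, at 3.84 ± 0.339 and the monoamine transporter gene Slc18a2 at 1.02 ± 0.170. Vesicle biogenesis had 9 of 9 genes detected and a median of 36.2. Rab2a, a small GTPase, averaged 112 ± 3.60 and the tether subunit gene Vps51 44.1 ± 2.49, while Vps54 and Rundc1 had 14.4 ± 0.955 and 12.5 ± 0.474. Both granin-like genes were detected, with Resp18, a protein of the vesicle lumen, at 40.005 ± 2.68 beside Pcsk1n.

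Of 15 neuropeptide precursor genes, the substrates of this machinery, all 15 were detected. Their median was 12.5 TPM, lower than 9 of the 10 genes described here. Sst and Cck led at 175 ± 0.290 and 170.4 ± 7.43, and Crh and Pomc were lowest at 3.91 ± 0.346 and 1.27 ± 0.092 (SD, n = 2). Summed, the 15 precursors reached 556 TPM in replicate 1 and 519 in replicate 2, against 854 and 839 for Cpe alone. Of the 11 with enough counts, 3 were lower in replicate 2 past the limit, where 2.06% of all tested genes were. These were Penk at -0.74, Tac1 at -0.37 and Npy at -0.33, named after their values were seen. Penk and Tac1 are also abundant in striatum, whose markers were lower in replicate 2 as given above, and their part here was not tested.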

How the data were processed

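Total RNA-seq of 2 libraries was used as deposited by the authors: expected counts and TPM per gene and transcript, the percent of each gene's TPM per transcript, and estimated counts and TPM per transcript from a second quantification. Per the notes deposited with the files, both used the mm10 assembly and annotation M21, the first from transcriptome alignments and the second from reads with an index. The sources used here give neither programs nor the strand setting. Second-quantification TPM were summed by gene. Genes, lists and settings were chosen with earlier results of these data known. Values are per library or mean ± SD (n = 2). Between libraries, log2 TPM ratios used 0.1 as pseudocount and genes averaging at least 100 expected counts, with 0.32 (log2) as limit. CPM ratios carry Clopper-Pearson intervals. Named are the 10 genes and, per list, the 2 highest and 2 lowest by mean TPM, unless said otherwise. With 1 group, genes of like pattern could not be sought. Protein sequence features were not analysed here, and 1 gene of the lists is not reported here. The ratio step was tested on simulated counts with counting error alone, scaled to library totals and not as TPM. Alternatives were posterior mean TPM, TPM rescaled over protein-coding genes, pseudocount 1, minimum count 10 or none, CPM, TMM (edgeR 4.0.16), size factors (DESeq2 1.42.0, both on rounded counts), spike-in totals, and each library alone. Python 3.11.15, pandas 2.3.3 and scipy 1.17.1 were used.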

Additional observations from a re-analysis of the deposited data

How the results depend on the processing

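All 10 genes were detected, and none passed the limit of 0.32 (log2) between libraries, under each alternative tried. The share of all tested genes past the limit ran from 3.72% under DESeq2 size factors to 18.8% with no filter on counts. The same top transcript was named by both quantifications for 9 of 10 genes with either library alone, with shares of expected counts and with protein-coding transcripts only. Chgb, with 1 annotated transcript, is among the 9. Over protein-coding genes with at least 2 transcripts the share was 74.7% with replicate 2 alone and 75.9% with replicate 1 alone. It was 82.9% with shares of expected counts and 81.2% with protein-coding transcripts only, so the 9 of 10 is near the background. The summed TPM of the 10 genes moved with the scaling from 1651 ± 12.5 to 2611 in the second quantification, 3402 when rescaled over nuclear protein-coding genes and 1602 with posterior means. With 1 library left out it ran from 1642 to 1659.6. Single ratios differed from the main value by more than their counting interval reaches to either side for 2 genes in the second quantification, 2 under TMM, 2 under DESeq2 size factors, 1 under CPM and 1 under the spike-in total, none past the limit. Pam was among them in each case. Its ratio was 0.17 in TPM and 0.08 in CPM. The counting interval of Pam is built around the CPM ratio, so the CPM value lay inside it by construction. The TMM, size factor and spike-in values, from the same counts, lay inside it too, which is no separate check. CPM, TMM, size factors and spike-in totals differ by a shift common to all genes, and the filters left the ratios of the 10 genes as they were. The median ratio of all tested genes stayed between -0.0041 and 0.043 over these scalings. No paired analysis was possible because the 2 libraries form 1 group. With 2 animals, differences between animals and between libraries cannot be told apart.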

Other observations

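For 3 of the 10 genes, Cpe, Chgb and Pcsk2, the deposited TPM lay above the upper bound of the deposited interval of the same gene in both libraries. The share of all genes with this trait was not computed, so it is not shown to be particular to these 3. Slc17a7, outside the 10, had it too, at 499 TPM with an upper bound of 489 in replicate 1 and 484 with 473 in replicate 2. For Cpe, TPM was 854 with bounds of 817 and 837 in replicate 1. The posterior mean, which the interval surrounds, was 827 for Cpe in replicate 1 and 812 in replicate 2. The sources used here do not state what level these intervals have.

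Pam-206, a retained-intron transcript of Pam, had 16.8 expected counts in replicate 1 and 73.6 in replicate 2 in the first quantification, where it held 2.40% and 9.74% of the gene, and 0% in both libraries of the second. The retained-intron transcript Pam-213 moved the other way, with 91.2 expected counts in replicate 1 and 17.4 in replicate 2. Summed over transcripts, Pam had 4896 and 5009 counts.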
